A study of Mus musculus with 4 samples.

Results

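Rab GTPases are small membrane-bound switch proteins that give each transport vesicle and organelle of the cell its identity. A Rab is active while bound to GTP, when it recruits effectors such as motors, tethers and coat proteins, and it is turned on by exchange factors and off by GTPase-activating proteins. In T cells they are known for carrying receptors to and from the contact with another cell and for the release of cytotoxic granules. The Rab genes were taken as all mouse genes whose symbol is Rab followed by a number, with at most 1 letter and 1 further digit, so that effectors such as Rab11fip1 were not counted. There were 59 such genes among the 18193 genes with a probe set of a single symbol on the arrays, and together they had 132 probe sets. Each was read from its probe set of highest mean over the 4 arrays, and 47 of the 59 were above the signal filter and were tested, among 12252 tested genes in all.

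The cells were CD4 T cells from the lamina propria of the mouse large intestine, the connective tissue under the epithelium. All mice were of mixed 129/B6 background and heterozygous for GFP knocked in at the Gpr15 locus, so every sample, GFP-negative ones included, carried 1 altered copy of that gene. GFP marked cells that use Gpr15, which encodes a chemoattractant receptor of T cells that home to the large intestine. After collagenase digestion, GFP-positive cells (labelled GPR15positive) and GFP-negative cells (labelled GPR15negative) were sorted, and each population was measured on 2 Affymetrix arrays, replicates 1 and 2. The labels do not give the age or the number of mice behind a sample, and a p-value here reflects the spread of these arrays alone. The comparison asks which Rab genes differ between colonic CD4 T cells with and without Gpr15.

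Gpr15 had signals of 619 and 729 on the GPR15positive arrays, against 146 and 162 on the GPR15negative arrays. Its log2 difference was 2.02 (95% interval 1.48 to 2.56; limma adjusted p = 0.0829), so it did not pass an adjusted p of 0.05 over all genes. Of the 9 genes of CD4 T cell identity measured, all 9 were above the filter, with a median difference of -0.09. Of these, 7 had negative differences, and 4 were lower with groups apart, or 44.4% where 18.7% of all tested genes were. The T cell surface gene Thy1 differed by -0.40 (-0.94 to 0.14), the T cell receptor subunit gene Cd3d by -0.27 (-0.80 to 0.27) and Cd4 by -0.01 (-0.54 to 0.52). The 2 genes with positive differences were Cd2, at 0.34 (-0.26 to 0.93), and Cd5, at 0.12 (-0.41 to 0.65). Cd2 alone was higher with groups apart, or 11.1% of the 9, where 28.7% of all tested genes were. By limma, 0 of the 9 had an unadjusted p under 0.05. The replicate numbers also split the arrays by sex. Xist, expressed in females, had signals of 4313 on the GPR15positive and 4172 on the GPR15negative replicate 1 array, and of 112 and 55.1 on the replicate 2 arrays. Differences within each replicate number are therefore given beside the pooled ones. Signals of other cells differed between arrays as well. The 5 plasma cell markers summed to 6847 and 4462 on the GPR15positive arrays, against 4149 and 4841 on the GPR15negative arrays. Most of this was Jchain, at 6219 and 4093 against 3852 and 4455. All 4 tested plasma cell markers had positive differences, where 57.7% of all tested genes did. Of the 4, 2 were higher with groups apart, or 50%, where 28.7% of all tested genes were. The 15 myeloid markers summed to 498 and 1811 on the GPR15positive arrays, against 333 and 513 on the GPR15negative arrays. The 14 epithelial markers summed to 3740 and 970 on the GPR15positive arrays, against 1138 and 1175 on the GPR15negative arrays. All 10 tested myeloid markers had positive differences, as did 57.7% of all tested genes. Of the 10, 6 were higher with groups apart, or 60%, where 28.7% of all tested genes were. Csf1r, the receptor that defines macrophages, had signals of 35.5 and 164 on the GPR15positive arrays, against 7.73 and 10.7 on the GPR15negative arrays, a difference of 1.93 (0.52 to 3.35; limma adjusted p = 0.264). Mpeg1, also among the 6, was at 3.07 and 19.6 on the GPR15negative arrays. Csf1r and Mpeg1 were thus above the filter's signal of 27.3 only on GPR15positive arrays. They passed the filter through that group, so the share of 60% is partly set by the filter. Of the 11 tested epithelial markers, 10 had positive differences, or 90.9%, and 4 were higher with groups apart, or 36.4%. Their median was 1.57 within replicate 1 and -0.29 within replicate 2. Only 4 of the 11 had the same sign within both, or 36.4%, where 64.4% of all tested genes did. The epithelial adhesion gene Epcam, 1 of these 4, had signals of 246 and 175 on the GPR15positive arrays, against 72.3 and 42.5 on the GPR15negative arrays. Its difference was 1.64 (0.89 to 2.38; limma adjusted p = 0.167). The part of these cells in the Rab differences was not tested. Foxp3, which defines regulatory T cells, had signals of 441 and 472 on the GPR15positive arrays, against 76.6 and 72.2 on the GPR15negative arrays. It differed by 2.38 (1.87 to 2.90; limma adjusted p = 0.0705), and the part of a different share of regulatory T cells in the Rab differences was not tested. Fewer cells of a type and less RNA per cell cannot be told apart in these bulk samples.

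Rab31 and Rab39b had the smallest p of the family, and the sequence around the start of each is shown for that reason. Each is 250 bases before to 50 bases after the annotated start, from the RefSeq promoter table of build GRCm38.p6. That table matched 48 of the 59 Rab genes, and Rab37 had no entry. Rab31 lies on the minus strand at chr17:65772703-65773002 and Rab39b on the minus strand at chrX:75578182-75578481. Capitals mark motifs found in the windows. The motifs searched, on both strands, were CACGTG (the core of the E-box read by lysosomal gene regulators), TGACGTCA (the cyclic AMP response element), TGTTTAC (a forkhead site) and TGANTCA (an AP-1 site).
Rab31: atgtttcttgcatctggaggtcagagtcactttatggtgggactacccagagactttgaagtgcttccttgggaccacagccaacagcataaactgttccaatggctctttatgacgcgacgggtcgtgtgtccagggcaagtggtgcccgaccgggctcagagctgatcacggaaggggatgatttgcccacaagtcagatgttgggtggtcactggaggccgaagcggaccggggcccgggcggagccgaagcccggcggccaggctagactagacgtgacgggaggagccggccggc
Rab39b: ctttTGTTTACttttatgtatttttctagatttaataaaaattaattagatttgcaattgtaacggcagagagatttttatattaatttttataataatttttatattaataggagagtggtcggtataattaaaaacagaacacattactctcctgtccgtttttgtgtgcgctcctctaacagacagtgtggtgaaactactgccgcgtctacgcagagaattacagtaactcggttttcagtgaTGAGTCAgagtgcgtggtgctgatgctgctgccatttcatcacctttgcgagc
The Rab31 window held no match to these letters. The Rab39b window held TGTTTAC, which 3.65% of all 32851 promoter windows hold, and TGAGTCA, a form of TGANTCA, which 7.81% hold. Over the 60 windows of the 48 Rab genes, CACGTG was found in 10% against 7.15% of all windows, and its genes were Rab20, Rab21, Rab23, Rab24, Rab27a and Rab5a. The 2 windows differed in base composition, with 60.3% G and C for Rab31 and 35.7% for Rab39b. A match is a description of the sequence only.

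No Rab gene passed the test. The count was 0 of 47 at an adjusted p under 0.05 by limma, where 0.0326% of all tested genes (4 of 12252) passed. At an unadjusted p under 0.05, 3 Rab genes were higher in GPR15positive cells and 0 lower, or 6.38% and 0% of the family. Over all tested genes these shares were 10.2% and 4.37%, so the family did not hold a larger share of such genes than the rest. A difference of at least 2-fold with both GPR15positive arrays on one side of both GPR15negative arrays was found in 0 Rab genes. Over all genes 3.4% were that much higher and 1.31% that much lower. The Rab differences ran from -0.42 for Rab8a to 0.91 for Rab37 on the log2(signal + 16) scale, which understates the change of dim genes. For 31 of the 47 genes the whole 95% interval lay within 2-fold in either direction, or 66% of the family against 56.8% of all tested genes.

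The family's differences leaned towards GPR15positive cells under the deposited scaling. Of the 47 genes, 35 had a positive difference and 12 a negative one, with a median of 0.15 against 0.07 over all tested genes. The positive share was 74.5% for the family and 57.7% for all tested genes. The groups did not overlap in 18 genes that were higher and 5 that were lower in GPR15positive cells, or 38.3% and 10.6%, where 28.7% and 18.7% of all tested genes did so. With each array centred on its median, a step that shifted the median of all genes by -0.23, the split was 18 positive and 29 negative, and the non-overlapping genes were 6 higher and 14 lower, or 12.8% and 29.8%. Over all tested genes 35.9% were then positive, where the family had 38.3%, and 14.7% were higher and 36% lower with groups apart. Under quantile and under cyclic loess normalization the split was 34 positive and 13 negative, or 72.3%, where 51.5% and 51.6% of all tested genes were positive. The lean was smaller with the mean of probe sets, where 65% of Rab genes and 59.2% of all tested genes were positive. Without the signal filter these shares were 66.1% and 59.9%. The distance of the Rab median from the median of all genes was 0.07 under the deposited scaling. Median scaling moves all differences by the same amount and cannot change this distance. It was 0.109 under quantile and 0.102 under cyclic loess normalization, and 0.115 with the filter at the 60th percentile. With the mean of probe sets it was 0.021, and without the signal filter 0.0099. The direction of members with positive differences of about 0.2 or less depends on the scaling, and values are best read against the median of all genes.

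**Figure D1:**
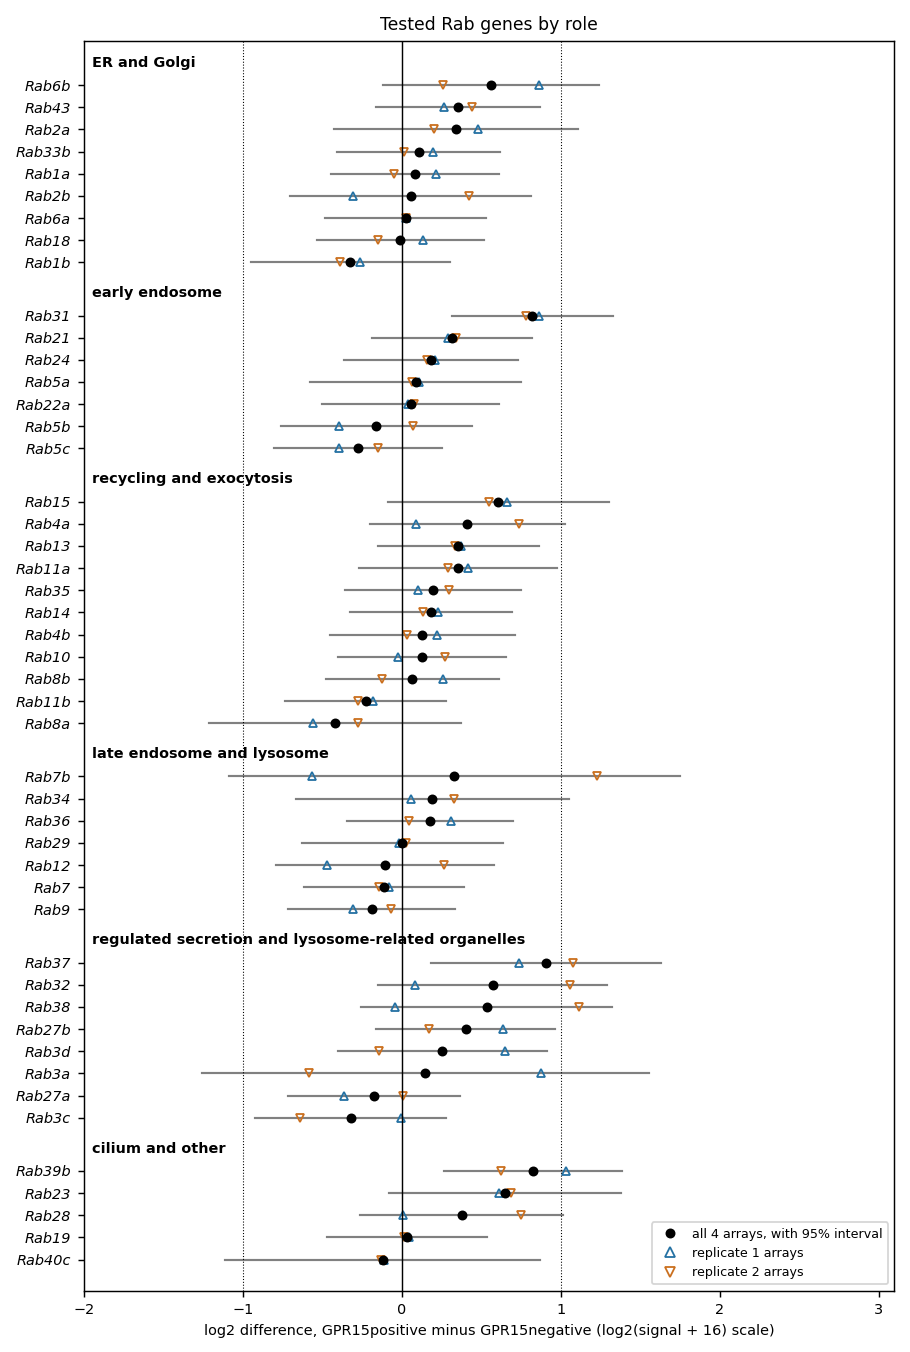
Log2 differences of the 47 tested Rab genes, grouped by role, with GPR15positive minus GPR15negative on the x axis. Filled circles and bars are the pooled difference with its 95% interval, triangles are the differences within replicate 1 and replicate 2, and dotted lines mark 2-fold. Only Rab31, Rab39b and Rab37 have intervals that leave out 0, and no pooled difference reaches 2-fold.

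Rab5 and its relatives act at the early endosome, where internalised receptors arrive first. Rab31, which carries cargo between the Golgi and endosomes, had the smallest p of the family. Its signals were 124 and 119 on the GPR15positive arrays, against 61.2 and 62.5 on the GPR15negative arrays, or 122 ± 3.63 and 61.8 ± 0.932 (SD, n = 2 each). The groups did not overlap and the arrays of a group lay close together. The log2 difference was 0.82 (0.32 to 1.33; limma adjusted p = 0.227). It came to 0.86 within replicate 1 and 0.78 within replicate 2. Its adjusted p ran from 0.116 to 0.486 over the 15 alternative settings, and the unadjusted p was under 0.05 in all 15. The second probe set of Rab31, below the filter, had signals of 36.8 and 38.7 on the GPR15positive arrays, against 2.33 and 30.0 on the GPR15negative arrays, so its difference rested on 1 dim array. Myeloid cells also express Rab31. The part of other cells in the difference of Rab31 was not tested.

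Read from their probe sets of highest mean, the other early endosome genes differed by -0.27 to 0.32. Rab5a, which drives the fusion of early endosomes, had signals of 628 and 832 on the GPR15positive arrays, against 582 and 794 on the GPR15negative arrays. The groups overlapped, and the replicate numbers were further apart than the groups. Its difference was 0.09 (-0.58 to 0.75; limma adjusted p = 0.915). The paralogs Rab5b and Rab5c differed by -0.16 and -0.27, and Rab5c was lower on both GPR15positive arrays than on either GPR15negative array. Another Rab5b probe set above the filter gave 0.15. Rab21, which returns integrins from endosomes, had signals of 1348 and 1369 on the GPR15positive arrays, against 1097 and 1076 on the GPR15negative arrays, without overlap. Both of its probe sets gave a difference close to 0.3, at 0.32 and 0.31, and the interval was -0.19 to 0.82. Rab22a and Rab24 differed by 0.06 and 0.19. The other Rab24 probe set above the filter, of similar mean signal, gave 0.77. Its signals were 93.3 and 88.0 on the GPR15positive arrays, against 56.7 and 38.2 on the GPR15negative arrays.

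Genes of regulated secretion and of lysosome-related organelles gave the widest spread. Rab37, known from secretory granules of mast cells, had signals of 306 and 245 on the GPR15positive arrays, against 177 and 107 on the GPR15negative arrays. Both GPR15positive arrays were the higher ones, and replicate 1 was above replicate 2 in each population. The log2 difference was 0.91 (0.19 to 1.63; limma adjusted p = 0.277). It came to 0.74 within replicate 1 and 1.08 within replicate 2. Leaving out 1 array at a time gave 0.59 to 1.23, and 2-fold was passed without GPR15positive replicate 2 and without GPR15negative replicate 1. Its second probe set, below the filter, differed by 0.0018, and as the mean of both probe sets Rab37 differed by 0.46, with an unadjusted p above 0.05. The unadjusted p stayed under 0.05 in 11 of 15 alternatives. The mast cell gene Kit had signals of 98.1 and 270 on the GPR15positive arrays, against 64.4 and 26.5 on the GPR15negative arrays, a difference of 1.63 (0.35 to 2.91; limma adjusted p = 0.276). Of 9 markers of mast cells and granulocytes with a probe set, only 3 were above the filter and tested. All 3 had positive differences, as did 57.7% of all tested genes. Of the 3, 1 was higher with groups apart, or 33.3%, where 28.7% of all tested genes were. Cpa3, a defining mast cell protease gene, was below the filter and not tested, at 56.7 and 5.20 on the GPR15positive arrays, against 25.6 and 37.1 on the GPR15negative arrays. The mast cell protease genes Mcpt1, Mcpt2 and Mcpt4 were below the filter too. They differed by -0.93, 0.40 and 0.83, so the markers did not point one way. The part of mast cells in the difference of Rab37 was not tested.

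Rab32 and Rab38 are close relatives that carry pigment enzymes to melanosomes and act at lysosome-related organelles in other cells. Rab32 had signals of 115 and 156 on the GPR15positive arrays, against 108 and 66.5 on the GPR15negative arrays. Its difference was 0.57 (-0.15 to 1.29; limma adjusted p = 0.427), and it came to 0.08 within replicate 1 and 1.06 within replicate 2. Rab38 had signals of 53.0 and 93.9 on the GPR15positive arrays, against 55.2 and 34.8 on the GPR15negative arrays, and its groups overlapped. Its difference was 0.53 (-0.25 to 1.32), with -0.04 and 1.11 within the replicate numbers, and its other probe set above the filter gave 0.99. Both genes were highest on GPR15positive replicate 2, the array with the highest myeloid sum, and the part of myeloid cells in this was not tested. Hps1 and Hps4, which form the exchange factor of this pair, differed by 0.35 (-0.19 to 0.89) and 0.80 (-0.31 to 1.91), with limma adjusted p of 0.523 and 0.469.

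Rab27a docks cytotoxic granules at the plasma membrane, and its loss in the mouse gives the ashen coat and defective killing. It had signals of 568 and 652 on the GPR15positive arrays, against 736 and 647 on the GPR15negative arrays. The groups overlapped, with the replicate 2 arrays almost equal. Its difference was -0.18 (-0.72 to 0.36; limma adjusted p = 0.755), an interval that leaves out a 2-fold change in either direction. Its partner in granule priming, Unc13d, differed by 0.04 (-0.61 to 0.68). Rab27b, the second Rab27 gene, was dim, with signals of 72.4 and 55.8 on the GPR15positive arrays, against 40.9 and 47.8 on the GPR15negative arrays. Its difference was 0.40 (-0.16 to 0.97), but another probe set above the filter gave -1.24, so its direction was not settled by these arrays. The Rab3 genes of synaptic and endocrine secretion were dim too. Rab3a differed by 0.15 (-1.26 to 1.55), Rab3c by -0.32 and Rab3d by 0.26, while Rab3b, Rab26 and Rab44 were below the filter. Another Rab3c probe set above the filter, of similar mean signal, gave 0.31, so its direction was not settled either.

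**Figure D2:**
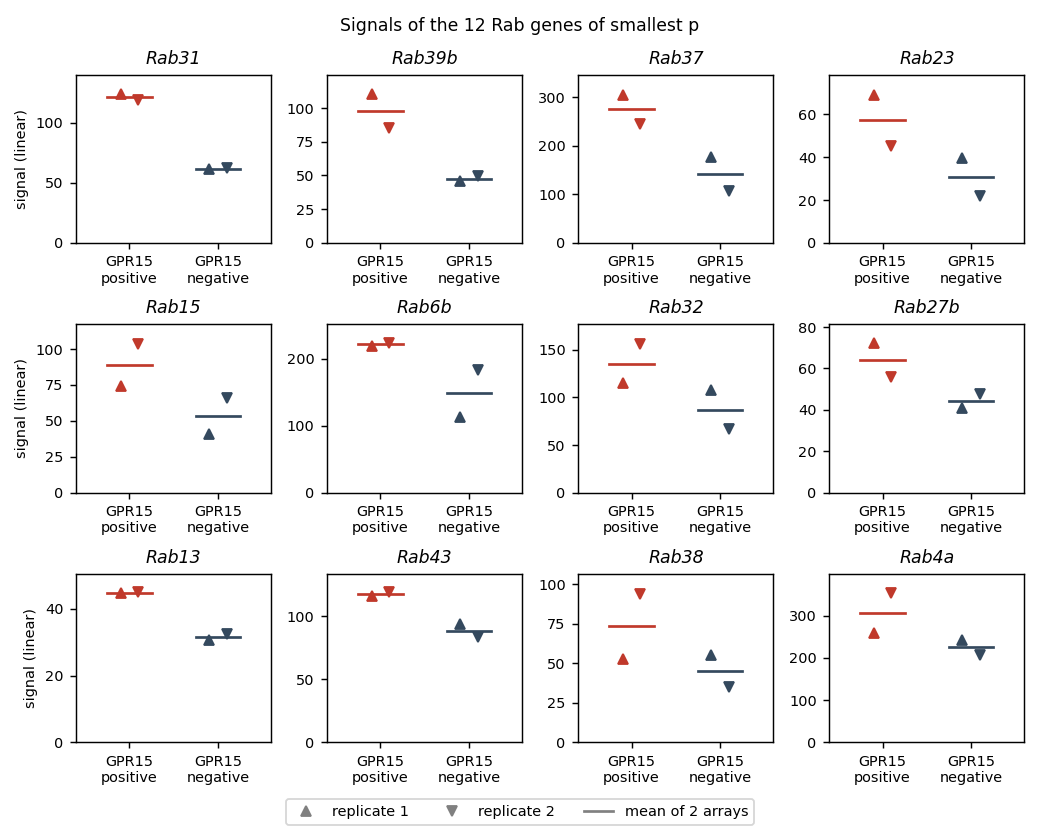
Deposited linear signals of the 12 tested Rab genes of smallest p, with GPR15positive left of GPR15negative in each panel. Upward triangles are replicate 1, downward triangles replicate 2, and lines are means of 2 arrays; the groups are apart in every panel but that of Rab38, where they overlap.

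Recycling Rabs return receptors to the cell surface, among them the T cell receptor. Rab11a, the Rab of slow recycling, had signals of 1144 and 1401 on the GPR15positive arrays, against 853 and 1141 on the GPR15negative arrays. The groups were apart only by the small gap between 1144 and 1141, and replicate 2 was the higher array in each population. Its difference was 0.35 (-0.27 to 0.98; limma adjusted p = 0.567), and it was 0.42 within replicate 1 and 0.29 within replicate 2. Its paralog Rab11b had signals of 1683 and 1622 on the GPR15positive arrays, against 1908 and 1964 on the GPR15negative arrays. Here all GPR15positive values were the lower ones, with a difference of -0.23 (-0.73 to 0.28). Its 2 other probe sets gave -0.09 and 0.59, so the opposite signs of the pair rest on the probe sets of highest signal. Rab4a, of fast recycling, had signals of 260 and 355 on the GPR15positive arrays, against 243 and 207 on the GPR15negative arrays. Its difference was 0.41 (-0.20 to 1.03), with 0.51 for its other probe set, and it was 0.09 within replicate 1 and 0.74 within replicate 2.

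Rab35, which recycles the T cell receptor towards the immunological synapse, had signals of 348 and 323 on the GPR15positive arrays, against 324 and 260 on the GPR15negative arrays. The groups overlapped and the difference was 0.20 (-0.36 to 0.75). Rab8b, of transport from the Golgi to the surface, had signals of 5723 and 4763 on the GPR15positive arrays, against 4780 and 5192 on the GPR15negative arrays. Both GPR15negative values lay between the GPR15positive ones, with a difference of 0.07 (-0.48 to 0.61). Its relative Rab8a had signals of 407 and 298 on the GPR15positive arrays, against 608 and 364 on the GPR15negative arrays. This was the lowest difference of the family, at -0.42 (-1.21 to 0.37), and its other probe set above the filter gave 0.26. Rab14, which links Golgi and endosomes, had signals of 1535 and 1537 on the GPR15positive arrays, against 1306 and 1398 on the GPR15negative arrays. Its difference was 0.18 (-0.33 to 0.69), and it was -0.047 with arrays centred on the median and -0.091 as the mean of its probe sets.

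Rab15, which acts on the recycling of the transferrin receptor, had signals of 74.2 and 103 on the GPR15positive arrays, against 40.9 and 65.6 on the GPR15negative arrays. Its difference was 0.61 (-0.09 to 1.30; limma adjusted p = 0.392), and it was 0.67 within replicate 1 and 0.55 within replicate 2. With the replicate number as a block its unadjusted p was under 0.05, as was that of Rab23. Rab13, which in T cells carries the integrin LFA-1, had signals of 44.6 and 45.1 on the GPR15positive arrays, against 30.8 and 32.4 on the GPR15negative arrays. The arrays of a group nearly coincided and the groups were apart, with a difference of 0.36 (-0.15 to 0.86) near the filter's signal of 27.3. Rab4b and Rab10 differed by 0.13 each and overlapped between groups.

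Rabs of the Golgi and the endoplasmic reticulum serve general secretion, and the 9 tested differed by -0.32 to 0.56. Rab1a, of transport into the Golgi, had signals of 2899 and 2815 on the GPR15positive arrays, against 2496 and 2911 on the GPR15negative arrays. Its difference was 0.08 (-0.45 to 0.61), and its other probe sets above the filter gave 0.31 and -0.31. Rab6a, of transport within and back from the Golgi, had signals of 1926 and 1991 on the GPR15positive arrays, against 1886 and 1958 on the GPR15negative arrays. The values of the groups interleaved, and the difference was 0.03 (-0.48 to 0.53). The neuron-enriched paralog Rab6b had signals of 219 and 223 on the GPR15positive arrays, against 113 and 183 on the GPR15negative arrays. Its difference was 0.56 (-0.12 to 1.24), with 0.86 and 0.26 within the replicate numbers, but 2 other probe sets above the filter gave 0.06 and -0.54.

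Rab43, a Golgi Rab known from antigen presentation by dendritic cells, had signals of 116 and 119 on the GPR15positive arrays, against 93.5 and 83.5 on the GPR15negative arrays. Its difference was 0.36 (-0.16 to 0.87), and its 2 other probe sets above the filter pointed the same way, at 0.76 and 0.95. As the mean of its probe sets Rab43 had an unadjusted p under 0.05. Of the remaining members of this role, Rab2a differed by 0.34 (-0.43 to 1.11), and its 7 probe sets ran from 0.0031 to 0.45. Rab33b, Rab2b and Rab18 differed by 0.11, 0.06 and -0.01, and Rab1b by -0.32.

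The 7 tested Rabs of late endosomes and lysosomes differed by -0.19 to 0.33. Rab7, which directs late endosomes to lysosomes, had signals of 3164 and 3122 on the GPR15positive arrays, against 3349 and 3446 on the GPR15negative arrays. The groups did not overlap, yet they differed by only -0.11 (-0.62 to 0.39; limma adjusted p = 0.844), and the second probe set gave 0.36. Rab9, of retrieval from late endosomes to the Golgi, differed by -0.19 (-0.71 to 0.34), while Rab29, Rab12, Rab36 and Rab34 lay between -0.10 and 0.19. Rab7b, the second Rab7 gene, had signals of 15.9 and 96.5 on the GPR15positive arrays, against 31.2 and 32.0 on the GPR15negative arrays. It was high on GPR15positive replicate 2 alone, the array of the highest myeloid sum, and the part of myeloid cells in this was not tested. The pooled difference of Rab7b was 0.33 (-1.09 to 1.75).

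Of the remaining Rabs, Rab39b is an X-linked gene known from neurons. It had signals of 110 and 84.9 on the GPR15positive arrays, against 45.7 and 49.5 on the GPR15negative arrays. The groups were apart, and the difference was 0.83 (0.27 to 1.39; limma adjusted p = 0.245). It was 1.03 between the female arrays of replicate 1 and 0.62 between the male arrays of replicate 2, and its second probe set gave 0.90. Its adjusted p ran from 0.134 to 0.536 over the 15 alternatives, and its unadjusted p was under 0.05 in 14. Rab23, a brake on hedgehog signalling in the mouse, had signals of 69.1 and 45.4 on the GPR15positive arrays, against 39.7 and 22.1 on the GPR15negative arrays. Its difference was 0.65 (-0.08 to 1.38), with 0.61 and 0.69 within the replicate numbers. Rab28, Rab19 and Rab40c differed by 0.38, 0.03 and -0.12.

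The 12 genes below the filter were too dim for a difference to be read. They were Rab39, the autosomal relative of Rab39b, and Rab3b, Rab9b, Rab17, Rab20, Rab25, Rab26, Rab30, Rab33a, Rab40b, Rab42 and Rab44. Rab25, a Rab of epithelial cells, was at 20.0 and 3.33 on the GPR15positive arrays, against 3.16 and 2.39 on the GPR15negative arrays. Its single raised value, below the filter's signal of 27.3, lay on GPR15positive replicate 1, the array with the highest epithelial sum. The part of epithelial cells in this was not tested.

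In 20 of the 47 genes the mean difference between replicate 1 and replicate 2 was larger than that between the populations, or 42.6% where 41.3% of all tested genes did so. The sign was the same within both numbers in 34 of 47, or 72.3%, where it was in 64.4% of all tested genes. Among members with several probe sets the choice of probe set mattered as well. Of 24 Rab genes with more than 1 probe set above the filter, 13 had probe sets of both signs.

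**Figure D3:**
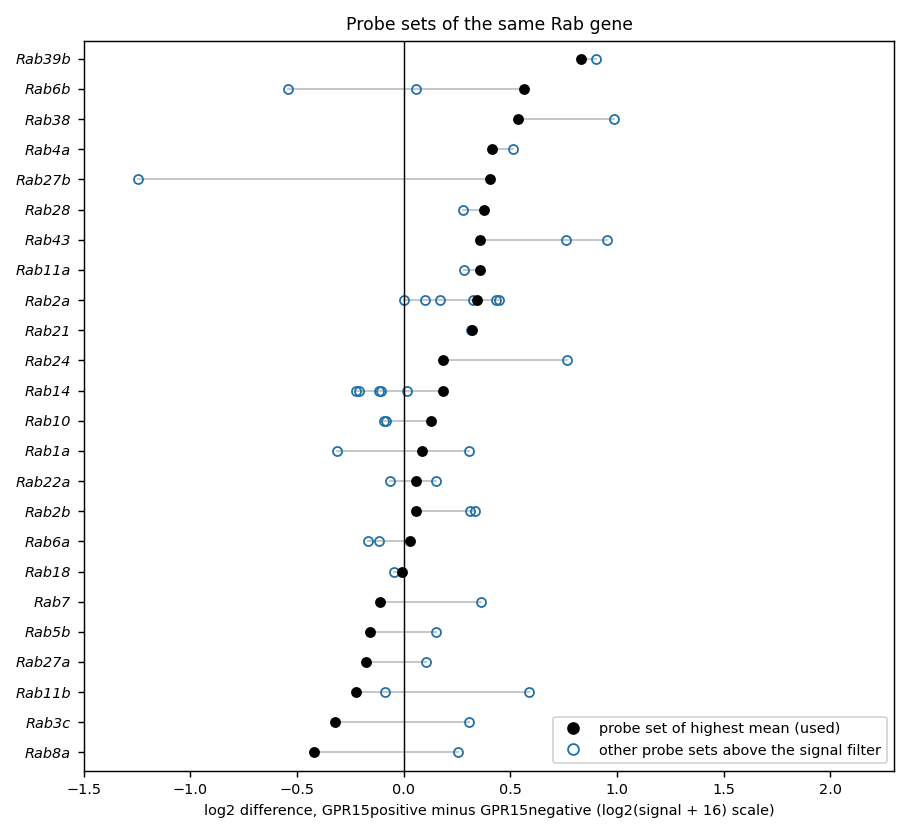
Log2 differences (GPR15positive minus GPR15negative) of every probe set above the signal filter for the 24 Rab genes with more than 1. Filled circles are the probe set of highest mean and open circles the others; Rab39b, Rab4a, Rab43 and Rab2a stay on the positive side, while Rab27b and Rab6b spread to both sides of 0.

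Genes that load, activate and read the Rabs were taken from lists of the known machinery. The 7 tested genes of Rab lipid attachment and extraction, which include the escort protein gene Chm, had a median of -0.16, with 0 past an unadjusted p of 0.05, and all 7 intervals lay within 2-fold. Of 29 tested exchange factor genes 0 passed the adjusted test, and the median was 0.15. By 2-fold with groups apart, 2 were higher and 2 lower, where 3.4% and 1.31% of all tested genes were. Dennd2d, an exchange factor for Rab9, had signals of 54.8 and 97.4 on the GPR15positive arrays, against 556 and 567 on the GPR15negative arrays. That is a difference of -2.69 (-3.39 to -1.98; limma adjusted p = 0.0814), while Rab9 itself differed by -0.19. Rin2, which activates Rab5, had signals of 305 and 210 on the GPR15positive arrays, against 97.0 and 85.1 on the GPR15negative arrays. Its difference was 1.33 (0.70 to 1.97), and that of Dennd5a was 1.09 (0.44 to 1.73), with limma adjusted p of 0.167 and 0.222.

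GTPase-activating proteins end the active state of a Rab. Of 32 tested genes 0 passed the adjusted test, and the median was 0.16. By 2-fold with groups apart, 4 were higher and 1 lower, where 3.4% and 1.31% of all tested genes were. Tbc1d4, known for holding back glucose transporter vesicles, had signals of 250 and 388 on the GPR15positive arrays, against 678 and 814 on the GPR15negative arrays. All GPR15positive values were the lower ones, and the difference was -1.21 (-1.91 to -0.52; limma adjusted p = 0.214). Tbc1d7, which is also a subunit of the tuberous sclerosis complex, had signals of 80.4 and 84.3 on the GPR15positive arrays, against 32.6 and 33.1 on the GPR15negative arrays. Its difference was 1.01 (0.50 to 1.51), and Tbc1d9 differed by 0.85 (0.29 to 1.41), with limma adjusted p of 0.181 and 0.241.

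Rab effectors had a median of 0.18 over 42 tested genes, with 0 past the adjusted test. By 2-fold with groups apart, 1 was higher and 1 lower, where 3.4% and 1.31% of all tested genes were. Rab11fip1, which binds Rab11, had signals of 289 and 261 on the GPR15positive arrays, against 187 and 92.4 on the GPR15negative arrays, a difference of 0.97 (0.13 to 1.81). Myo5b, the motor that Rab11 recruits, differed by 0.78 (0.24 to 1.32), and Sytl4, which binds Rab27, by 1.02 (0.14 to 1.89). The limma adjusted p of these genes were 0.304, 0.250 and 0.304.

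The list of lysosome-related organelle and granule release genes was chosen with earlier results of these data known. A called member is therefore a description and no support for the list. Of its 27 tested genes, 1 passed the adjusted test, where 0.0326% of all tested genes did. This was Mreg, known from the transport of melanosomes and lysosomes, which rose by 3.25 (2.69 to 3.81; limma adjusted p = 0.0397), with signals of 2057 and 2416 on the GPR15positive arrays, against 200 and 242 on the GPR15negative arrays. Mreg passed in 5 of 15 alternatives and missed the threshold in the other 10. These were a pseudocount of 1, quantile and cyclic loess normalization, no signal filter, the replicate number as a block, each fit without 1 of the 4 arrays, and probe sets chosen by the linear mean. Its difference was 3.12 to 3.38 in those 10, and its adjusted p ran from 4e-05 to 0.319 over all 15. Stx11, a membrane fusion gene needed for cytotoxic granule release, had signals of 2172 and 2166 on the GPR15positive arrays, against 725 and 1035 on the GPR15negative arrays. Its difference was 1.31 (0.68 to 1.93; limma adjusted p = 0.168). Bloc1s5, of organelle biogenesis, differed by 0.95 (0.37 to 1.54). The median of this list was 0.08, that of all tested genes being 0.07.

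**Figure D4:**
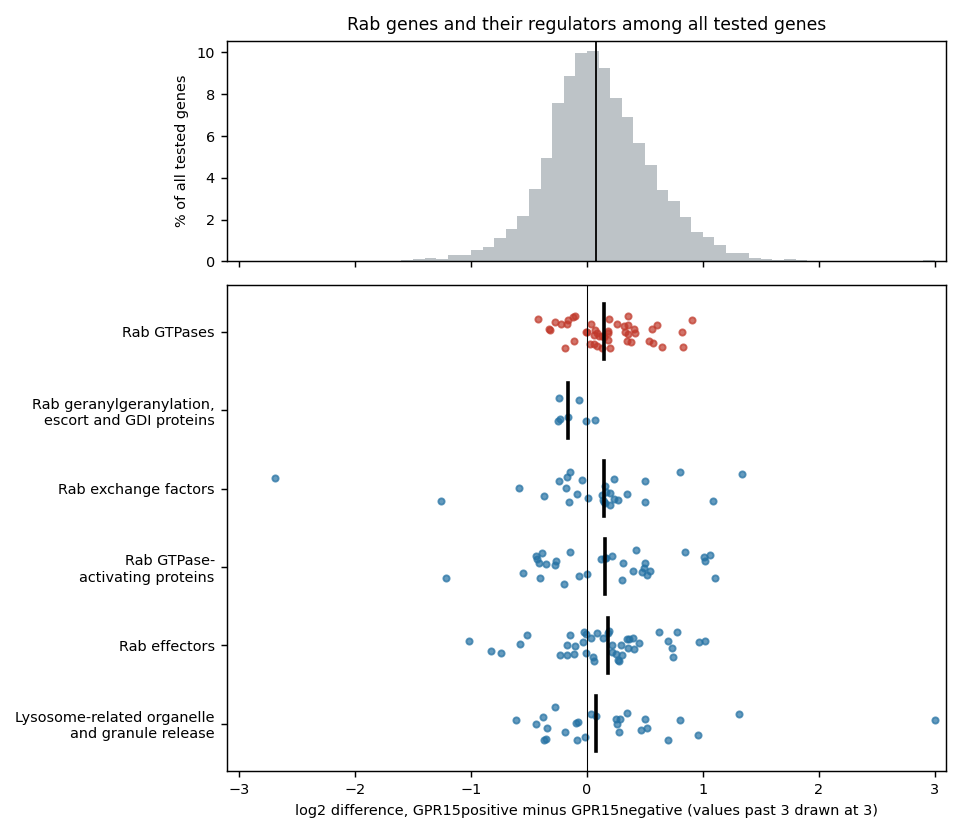
Upper panel: share of all 12252 tested genes by log2 difference (GPR15positive minus GPR15negative), with the median as a line. Lower panel: each dot is a tested gene of the Rab family or of a list of its regulators, effectors or related organelles, with black bars at the medians; values past 3 are drawn at 3, the Rab genes lie between -0.42 and 0.91, and Dennd2d and Mreg are the most distant list members.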

How the data were processed

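RNA of both sorted populations, 2 arrays each, was extracted with Trizol, biotin-labelled and hybridised to Affymetrix arrays, per the labels. The values are deposited linear intensities, 1 signal per probe set, made by software not given in the sources used here. Their mean, with the lowest and highest 2% left out, was 150.0 on each of the 4 arrays, and median signals were 45.2 to 46.0 on GPR15positive and 36.1 to 37.0 on GPR15negative arrays. Groups came from the sample titles. The number of arrays limits the precision.

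Signals were taken to log2 after adding 16. Probe sets with 1 gene symbol in the platform annotation (34945, controls left out) were used, each gene by its probe set of highest mean log2 signal, and genes above the 40th percentile (a signal of about 27.3) were tested two-sided with limma 3.58.1 in R 4.3.3, with group as the only term and Benjamini-Hochberg adjustment over the 12252 tested genes. Intervals are 95% intervals of that fit. The fit was tested on simulated data. "Apart" or non-overlapping groups have both arrays of one population above both of the other.

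The members, gene lists and roles were chosen with earlier results of these data known. Values are given for the 12 tested Rab genes of smallest p, those past 2-fold with groups apart (0), the 6 of highest mean signal, a fixed set of 10 (Rab27a, Rab27b, Rab32, Rab38, Rab37, Rab5a, Rab7, Rab11a, Rab8b, Rab35) and the 3 list members of smallest p. Others named (such as Rab8a, Rab21, Rab7b, Rab25, Kit, Csf1r, Epcam, Thy1, Cd3d and Hps4) were chosen after their values were seen. The lists of B, plasma, CD8 T and stromal cells had medians of 0.12, 0.48, 0.44 and 0.12, that of mast cells and granulocytes 0.39, of myeloid cells 0.57 and of epithelial cells 0.54.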

Additional observations from a re-analysis of the deposited data

How the results depend on the processing

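In each of 15 alternative settings limma called 0 Rab genes at an adjusted p under 0.05, and the lowest adjusted p of a Rab gene was 0.116, with the filter at the 60th percentile. Calls over all genes moved from 4 to 0 with a pseudocount of 1, quantile or cyclic loess normalization, no dim filter, the replicate block, any 1 array left out, and probe sets and filter chosen by the linear mean (an alternative chosen after seeing the data). They were 175 with a pseudocount of 64, 50 with the filter at the 60th percentile and 240 with trend and robust settings. Rab genes higher by 2-fold with groups apart numbered 1 (Rab39b) with a pseudocount of 1 and 0 to 2 without 1 array (Rab7b, Rab37 and Rab3a), where the group left with 1 array is assumed to vary like the other. The family's median of 0.15 was 0.12 with a pseudocount of 64, quantile or cyclic loess normalization, -0.081 under median scaling, 0.11 without filter, 0.098 with the mean of probe sets and 0.13 to 0.18 without 1 array.

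Of 326 results for named Rab genes under the alternatives, 310 kept their direction and 16 reversed, all for genes that were not called. Under median scaling Rab8b was at -0.16, Rab1a at -0.15, Rab6a at -0.20, Rab14 at -0.047, Rab5a at -0.14 and Rab35 at -0.031. With the mean of probe sets Rab6b was at -0.038, Rab8b at -0.19, Rab7 at 0.12, Rab6a at -0.085, Rab11b at 0.090 and Rab14 at -0.091. Without 1 array the lowest and highest values were -0.065 and 0.20 for Rab8b, -0.13 and 0.31 for Rab5a, and -0.027 and 0.19 for Rab1a.

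Deviations of same-numbered arrays correlated at 0.198 over genes. With the replicate block, 5 Rab genes had an unadjusted p under 0.05, against 3 without it, and 0 genes were called. The labels do not say that equal numbers share mice.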
